A study of Danio rerio with 416 samples.

Results

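A set of 10 genes of the DNA replication machinery was followed in single cells of zebrafish embryos: the subunits of the MCM helicase (mcm2, mcm3, mcm4, mcm5, mcm6 and mcm7), the helicase loader cdc6, the sliding clamp pcna, and the ribonucleotide reductase subunits rrm1 and rrm2. They were taken by symbol (MCM2, MCM3, MCM4, MCM5, MCM6, MCM7, CDC6, PCNA, RRM1 and RRM2 in the capitals of the files), and all 10 were present among the 25208 gene rows of the full-length table and among the 19205 rows of the UMI (unique molecular identifier) table. The series holds 416 cells picked by hand from embryos at 50% epiboly, when the blastoderm is spreading over the yolk and gastrulation begins. Wild-type cells came from the TLAB strain. Mutant cells carried MZoep tz57, which removes the maternal and the zygotic product of one-eyed pinhead, a co-receptor that Nodal ligands need. Full-length libraries in library preparation batches p1 to p4 were made from 52 wild-type and 276 MZoep cells, and 5-prime libraries with UMIs in batch p0 from 88 MZoep cells.

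The labels list no treatment. Embryos came from incrosses within each genotype and were deyolked and dissociated before picking, and the labels name no embryo or clutch for a cell. Each genotype is therefore 1 sample, cells are not replicates, and no test or p-value was made. Genotype, strain and clutch cannot be told apart. In every sentence below, SD stands for the spread over cells or over batches as stated. For the 10 genes, a ratio of mean levels between genotypes is set beside its values within batches.

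The MCM helicase is a ring built from 6 related subunits that unwinds DNA ahead of the replication fork. Before S phase the origin recognition complex, Cdc6 and Cdt1 load the ring onto origins; at the fork the clamp PCNA tethers the polymerases, and ribonucleotide reductase, made of a large subunit (Rrm1) and a small subunit (Rrm2), supplies the deoxynucleotides. In cultured mammalian cells these genes are driven by E2F factors and their transcripts peak around S phase. The early zebrafish embryo begins instead with rapid divisions that run on maternal transcripts and proteins, and the cycle lengthens after the midblastula transition.

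After cells with under 1500 genes at 1 FPKM (fragments relative to transcript length and library size) or more were left out, 47 cells of wild type and 245 of MZoep remained. From p1 to p4 these were 3, 14, 18 and 12 wild-type and 79, 80, 61 and 25 MZoep cells. The median number of genes per cell was between 6727 and 7162 in the wild-type batches and between 6793 and 7528 in the MZoep batches. Read depth was not used as such; the step between low FPKM values put the median relative depth of p2 at 0.555 in wild type and 0.707 in MZoep, against 1.15 to 1.32 in the other batches. Of the 5-prime cells 86 were kept, with a median of 47195 UMIs (29246 to 73231).

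Levels fell into a steep and stable order. In each of the 8 combinations of genotype and batch, rrm2 had the highest mean FPKM of the 10 genes, followed by pcna, cdc6 and mcm7 in that order, while the places of the other 6 genes changed between groups. FPKM is scaled by transcript length, so that levels of different genes can be set side by side.

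**Figure D1:**
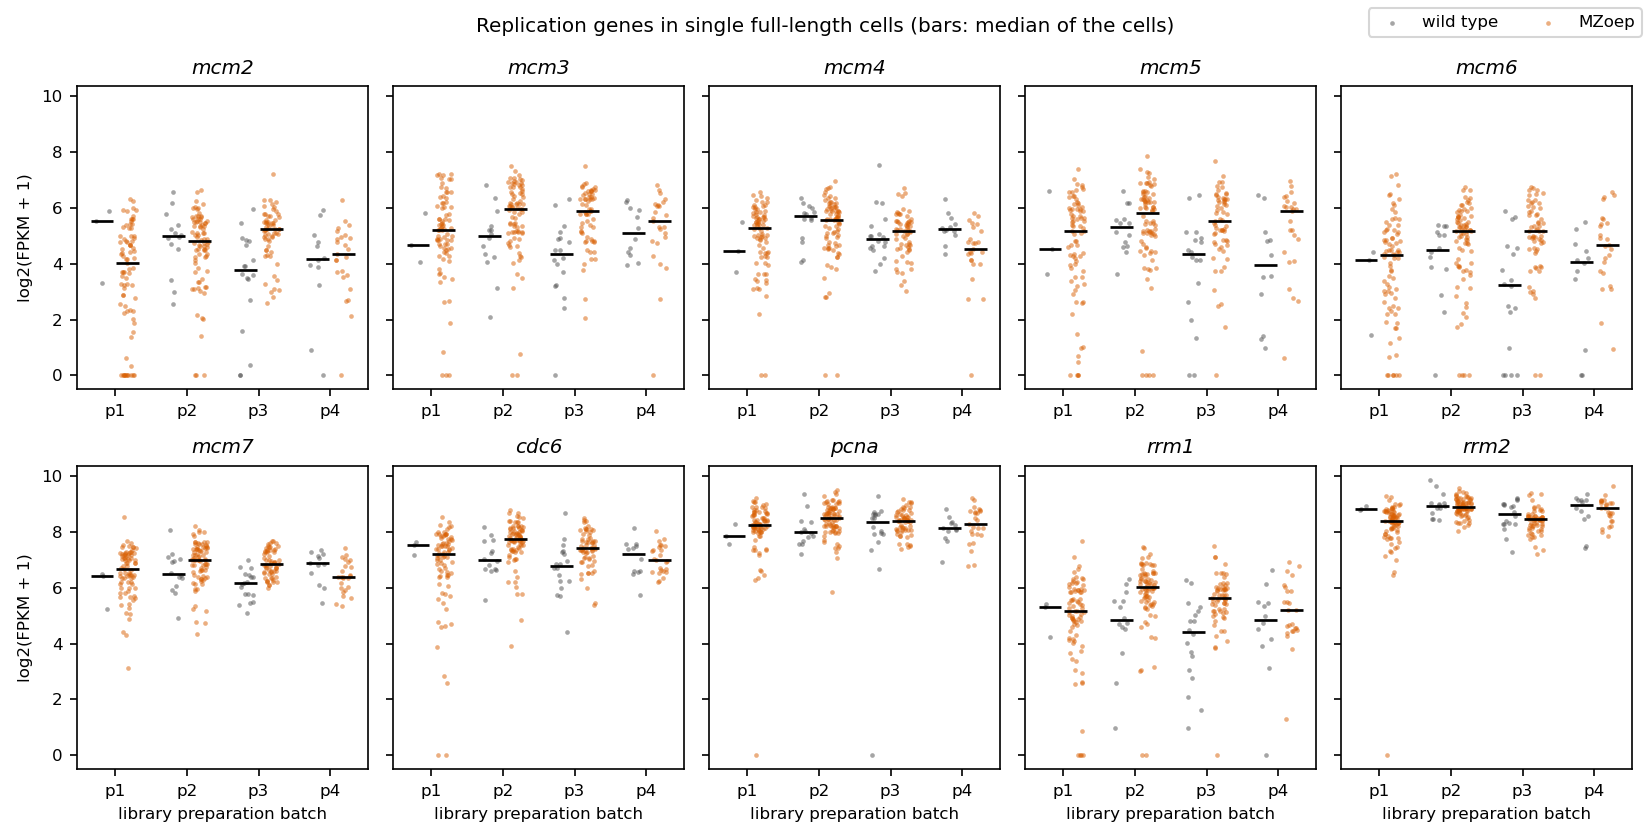
Level of each gene in single full-length cells, as log2(FPKM + 1) on the vertical axis, by library preparation batch on the horizontal axis; each point is a cell, grey for wild type and orange for MZoep, and bars mark the median of the cells. The points of both genotypes overlap for all 10 genes, rrm2 and pcna lie highest, and some cells lie at 0 for mcm2 and mcm6 in either genotype.

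Among the loader and the clamp, cdc6 ranged from 20.5 through a median of 125 to 405 FPKM in wild-type cells and from 0 through 173 to 436 FPKM in MZoep cells. The clamp gene pcna ranged from 0 through 269 to 653 FPKM in wild type and from 0 through 338 to 717 FPKM in MZoep. For both genes the cells of the genotypes overlapped over almost the whole range, and only 2 of 245 MZoep cells had no cdc6 and 1 cell of each genotype no pcna.

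The MCM subunits, which assemble in equal number, were not equal in transcript level. In wild-type cells mcm7 was highest, with 29.3, 84.4 and 270 FPKM in the lowest, median and highest cell, and in MZoep cells it had 7.66, 113 and 370 FPKM. It was the first of the 6 subunits in all 8 groups and was above 1 FPKM in every kept cell. Its mean was 1.87 to 5.24 times that of mcm2 and 2.68 to 6.74 times that of mcm6.

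The other subunits lay between mean levels of 13.03 and 65.2 FPKM in all 8 groups. The median cell had 22.2 FPKM of mcm2 in wild type and 25.9 in MZoep, with highest cells at 94.8 and 147 FPKM. For mcm3 the median was 24.5 FPKM in wild type and 47.6 in MZoep, with highest cells at 111 and 183 FPKM. These cells overlapped between genotypes, and the lowest cell was at 0 for both genes in both genotypes.

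For mcm4 the median was 35.3 FPKM in wild type and 37.2 in MZoep, and its highest cells reached 183 and 124 FPKM. The median cell had 23.9 FPKM of mcm5 in wild type and 43.8 in MZoep, and the highest cells had 96.9 and 230 FPKM. For mcm6 the median was 15.2 FPKM in wild type and 28.3 in MZoep, with highest cells at 59.1 and 147 FPKM. Thus mcm6 was the lowest of the 6 subunits in all 4 wild-type batches, but in MZoep it exchanged places with mcm2 and mcm4. The paralog mcm6l, which lay above mcm6 in wild type and is described below, was not part of this ranking.

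Several neighbours in the order of levels lay within their spread over batches. In MZoep the means over the 4 batches were 404 ± 73.8 FPKM for rrm2, 339 ± 25.2 for pcna, 171 ± 36.2 for cdc6 and 113 ± 19.1 for mcm7; in wild type they were 461 ± 48.7, 281 ± 26.1, 148 ± 20.9 and 89.8 ± 22.2 FPKM (SD over batches). Here rrm2 and pcna were within 1 SD of rrm2 in MZoep but not in wild type, and the steps to cdc6 and mcm7 were wider than 1 SD in both genotypes. Below them in MZoep stood mcm3 at 55.7 ± 8.80 FPKM, rrm1 at 52.1 ± 12.03 and mcm5 at 51.9 ± 7.87, then, after a step wider than 1 SD, 36.7 ± 8.74 for mcm4, 34.1 ± 6.38 for mcm6 and 28.1 ± 8.21 for mcm2. In wild type mcm4, mcm5, mcm3, rrm1 and mcm2 stood at 38.9 ± 9.49, 33.8 ± 10.4, 33.3 ± 6.92, 31.6 ± 4.46 and 28.0 ± 9.92 FPKM, each within 1 SD of its neighbour, and mcm6 lay lower at 16.9 ± 4.10 FPKM.

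The ribonucleotide reductase subunits differed widely. The small subunit gene rrm2 ranged from 156 through a median of 459 to 939 FPKM in wild type and from 0 through 387 to 803 FPKM in MZoep. The large subunit gene rrm1 ranged from 0 through 26.04 to 98.6 FPKM in wild type and from 0 through 47.6 to 201 FPKM in MZoep. In 291 of 292 kept cells rrm2 was above rrm1. One limit applies to rrm2: the reference tables give this symbol to a pair of Ensembl genes, so the locus behind the row is uncertain.

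Most cells held all 10 of these transcripts at 1 FPKM or more, 35 of 47 in wild type and 208 of 245 in MZoep. The lowest cell held 6 of the 10 in wild type and 4 in MZoep. All 6 MCM subunits reached 1 FPKM together in 37 of the 47 cells of wild type (78.7%, exact 95% binomial interval 64.3% to 89.3%) and in 209 of 245 MZoep cells (85.3%, 80.2% to 89.5%). Most of the missing detections were of mcm2, mcm5 and mcm6, and mcm6 was detected in 80.9% of wild-type cells (66.7% to 90.9%) and 93.9% of MZoep cells (90.1% to 96.5%). The intervals of the genotypes overlap, cover counting error over cells only, and depend on depth.

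Between genotypes, no gene of the 10 differed by 2-fold or more once 1 FPKM was added to both means. The mean level in each batch was averaged with equal batch weights in both genotypes, and the MZoep mean was divided by the wild-type mean after adding 1 FPKM to each and given as a log2 ratio. On this scale 5.26% of the 6938 genes tested were at least 2-fold higher in MZoep and 2.83% at least 2-fold lower, and 0 of the 10 genes passed either limit. The median log2 ratio of the 10 genes was 0.36, against 0.13 over all genes tested (interquartile range -0.16 to 0.43). Under the median-ratio scaling described below these medians were 0.18 and -0.05. Of the 10 genes 8 were higher in MZoep, against 62.1% of all genes tested.

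The largest ratios were those of mcm6, rrm1, mcm3 and mcm5. The weighted means of mcm6 were 17.8 and 36.6 FPKM (wild type first here and below), more than 2-fold apart before 1 FPKM was added. With it the log2 ratio was 0.998, just under the 2-fold limit, and with 0.1 FPKM in its place 1.03. The ratios of mcm6 within p1 to p4 were 0.95, 0.64, 1.38 and 0.95. Of all genes tested, 94.7% had a lower ratio. Leaving out batch p1, p2 or p4 took mcm6 over the limit, with log2 ratios of 1.001, 1.20 and 1.01, and leaving out p3 gave 0.77.

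For mcm3 the weighted means were 32.4 and 58.6 FPKM (log2 ratio 0.84), with 0.57, 0.81, 1.302 and 0.26 within the batches. For rrm1 they were 30.6 and 55.4 FPKM (0.84), with 0.35, 0.99, 1.08 and 0.35. For mcm5 they were 31.8 and 54.6 FPKM (0.76), with -0.04, 0.51, 1.15 and 0.96. Thus mcm3, mcm6 and rrm1 were higher in MZoep in 4 of 4 batches and mcm5 in 3 of 4, p1 having only 3 wild-type cells. Within p1 to p4, 49.14%, 65.13%, 65.11% and 48.99% of all genes tested were higher in MZoep. The share of them higher, or lower, in 4 of 4 batches was not computed. Counts of batches, here and below, therefore have no exact background. The genes mcm3, mcm5, mcm6 and rrm1 stayed higher when cells were rescaled by their median ratio to the mean of all cells, over genes detected in at least 80% of them. This scaling moved the median of all genes to -0.05, and mcm5 then had a log2 ratio of 0.35 and rrm1 of 0.41.

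The abundant genes had smaller ratios. For rrm2 the weighted means were 458 and 414 FPKM (log2 ratio -0.15), lower in MZoep in 4 of 4 batches (-0.47, -0.11, -0.21 and -0.02). Its ratio was -0.36 under the median-ratio scaling, where the median of all genes was -0.05. For pcna the weighted means were 291 and 346 FPKM (0.25, with 0.35, 0.37, 0.14 and 0.22 within the batches), a direction that turned to -0.20 under the median-ratio scaling. For cdc6 they were 140 and 181 FPKM (0.37), with the batches divided into -0.25, 0.56, 0.54 and -0.06. With the main scaling none of the 3 genes stood outside the interquartile range of all genes tested.

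The other MCM subunits had at least 1 batch against the direction of the weighted value. For mcm7 the weighted means were 91.2 and 117 FPKM (log2 ratio 0.36), with 0.59, 0.32, 0.78 and -0.33 within the batches, so that it was higher in MZoep in 3 of 4 batches, as many as mcm5. For mcm4 they were 42.01 and 37.6 FPKM (-0.16), with 0.53, -0.06, -0.13 and -0.65, its only batch above 0 being p1 with 3 wild-type cells. For mcm2 they were 25.7 and 31.1 FPKM (0.27), with -0.86, -0.18, 1.12 and 0.03, and without p3 the ratio was -0.20. The values of mcm7, mcm4 and mcm2 were thus spread more widely over batches than the gap between genotypes. Their SD over p2 to p4 was 0.56, 0.32 and 0.69.

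**Figure D2:**
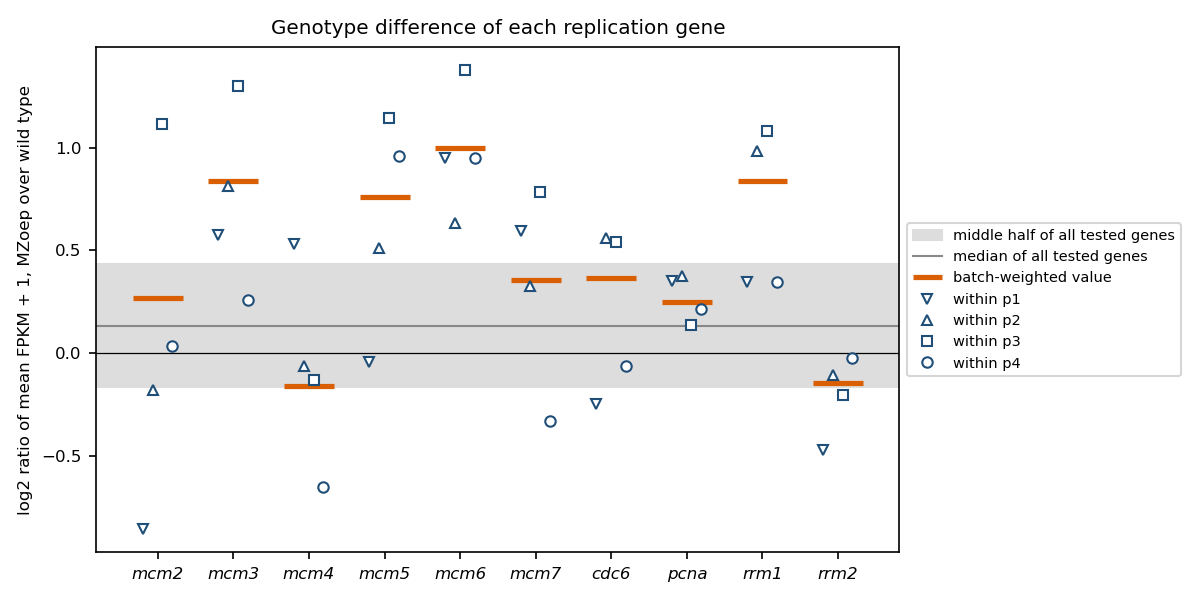
Log2 ratio of mean FPKM + 1, MZoep over wild type, for each gene on the horizontal axis; orange bars give the batch-weighted value, open symbols the value within each batch, the grey line the median of all genes tested (0.13) and the band their interquartile range. The bars of mcm3, mcm5, mcm6 and rrm1 lie above the band, the others within it, and batch values spread widely for mcm2.

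These differences varied in size between batches, and the cause was not tested. The median ratio of the 10 genes was 0.35, 0.44, 0.93 and 0.12 within p1 to p4, while that of all genes tested was -0.02, 0.24, 0.27 and -0.01. Batch p3 thus held the widest gap between the replication genes and the rest.

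Pairs of the genes were also compared by their ratio. The mean of rrm2 was 14.1, 15.3, 16.2 and 13.2 times that of rrm1 in wild type (p1 to p4), and 7.93, 7.09, 6.49 and 10.2 times in MZoep. The mean of mcm6 was 0.50, 0.46, 0.38 and 0.41 times that of mcm4 in wild type, and 0.69, 0.77, 1.12 and 1.31 times in MZoep. For both pairs the 4 wild-type values lay apart from the 4 MZoep values. Of 15 pairs compared, some of them added after values were seen, 6 lay apart in this way and 9 overlapped. Apart were also mcm3 and mcm7 over mcm4, mcm7 over mcm6, and mcm6 over mcm6l. Several of these pairs share mcm4 or mcm6 and are not independent of each other or of the single-gene ratios above. The share of pairs of other genes that lie apart was not computed, so the count has no background beside it. Overlapping were, for example, rrm2 over pcna (1.31 to 1.89 in wild-type batches, 1.03 to 1.36 in MZoep batches) and mcm2 over mcm4 (0.42 to 1.46 and 0.54 to 1.04). With cells rescaled by their median ratio, the first pair lay from 10.9 to 17.5 in wild-type batches and from 6.53 to 10.7 in MZoep batches, and the second 0.34 to 0.52 and 0.66 to 1.301. The ratio taken inside each cell does not depend on the scale of its library; for the first pair its median over cells lay from 12.4 to 18.4 in wild-type batches and from 6.74 to 12.8 in MZoep batches, so that batches of the genotypes overlapped, and for the second from 0.31 to 0.47 and from 0.49 to 1.14. Within each of the 4 batches the median was lower in MZoep for the first pair and higher for the second. The 5-prime MZoep cells gave 8.28 for the first pair and 0.92 for the second, in UMIs, which are not scaled by length.

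Other measures also differed between the kept cells of the genotypes. The sums below pool cells over batches without the batch weights. No values within batches are given, so batch and genotype are not separated in them. The 5 maternal transcripts used as markers, all detected, summed to a median of 23.7 FPKM per wild-type cell (0 to 125) and 89.3 per MZoep cell (0 to 287). The 11 enveloping layer genes, none at 0 in all cells, summed to a median of 159 FPKM (43.9 to 1403) and 302 FPKM (0 to 17204). The 5 ectoderm genes summed to a median of 307 FPKM (1.60 to 767) and 420 FPKM (0 to 1414), and the 4 margin genes with a row, of 5 listed, to 145 FPKM (26.01 to 874) and 120 FPKM (0 to 275). Over full-length MZoep cells the mean of the 10 genes had an r of 0.40 with the ectoderm list, 0.33 with the margin list, 0.20 with the maternal list and -0.08 with the enveloping layer list. With the number of genes detected per cell regressed out these were 0.29, 0.18, -0.01 and -0.05. Over wild-type cells, without regression, they were 0.35, 0.11, 0.36 and 0.11. Single genes in MZoep ran from -0.02 (tfap2a) to 0.49 (sox3) in the ectoderm list. In the margin list they ran from -0.001 (sox32) to 0.49 (tbx16). The part of these lists in the ratios of the replication genes was not tested. The 5 genes of the yolk syncytial layer summed to a median of 0 FPKM in each genotype (0 to 21.5 in wild type, 0 to 171 in MZoep). None was found in 37 of 47 wild-type and 169 of 245 MZoep cells, and apoa4a was at 0 in all wild-type cells.

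The rest of the replication machinery was looked at through 85 further genes in 8 roles, of which 82 had a row and 66 were abundant enough to test. Of these, 51 were higher and 15 lower in MZoep; 62.1% of all genes tested were higher. At least 2-fold higher were 2 of the 66 (3.03%, against 5.26% of all genes tested) and at least 2-fold lower 0 (against 2.83%). Their median log2 ratio was 0.26, but 0.12 without p2, where that of all genes was 0.10, and 0.08 under the median-ratio scaling, where that of all genes was -0.05. Their median within p1 to p4 was -0.07, 0.57, 0.25 and -0.08.

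In licensing, all 7 genes tested were higher in MZoep but with a median log2 ratio of 0.20, close to that of all genes (-0.32, 0.69, 0.46 and -0.14 within the batches). The most abundant of them, gmnn, encodes geminin, the inhibitor of Cdt1, and had 161 and 185 FPKM (0.20). The ratio was lowest for the MCM-binding protein gene mcmbp (0.09) and highest for the origin recognition subunit gene orc4 (0.90; 7.70 and 15.2 FPKM), which was higher in MZoep in only 2 of 4 batches.

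Among paralogs of the 10 genes, mcm6l had 41.6 and 42.3 FPKM, a log2 ratio of 0.02 where mcm6 had 0.998. In wild type mcm6 stood at 0.18, 0.52, 0.40 and 0.50 times the level of mcm6l, and in MZoep at 0.67, 0.75, 1.004 and 0.90 times. The paralog mcm3l was low, at 6.42 and 11.8 FPKM (0.79), and its ratio lay near that of mcm3. The second small subunit gene rrm2b had 7.29 and 4.08 FPKM (-0.71), with 0.25, -1.91, 0.06 and -1.44 within the batches. How reads were divided between such paralogs was not measured here.

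For helicase activation 7 of 8 genes tested were higher in MZoep, with a median log2 ratio of 0.45 (-0.50, 0.87, 0.54 and 0.06 within the batches). The GINS subunit gene gins3 was the most abundant (18.4 and 24.2 FPKM, 0.38), gins2 had the highest ratio (11.7 and 23.96 FPKM, 0.97, with -0.59, 2.65, 0.88 and 0.32 within the batches) and the helicase gene recql4 the lowest (-0.12). The polymerase genes had a median of 0.44, with 8 of 10 higher; within the batches it was -0.15, 0.72, 0.37 and -0.41, below 0 in 2 of 4. Among them pold3, a subunit of polymerase delta, had 57.4 and 60.5 FPKM (0.07), pole3 of polymerase epsilon the lowest ratio (-0.38) and the primase subunit gene prim2 the highest (4.84 and 8.48 FPKM, 0.70, with -2.08, 1.09, 1.87 and 0.35 within the batches).

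Fork factors had a median of 0.06, with 7 of 12 higher (0.30, 0.23, -0.06 and 0.39 within the batches). The single-strand binding protein subunits differed, with 115 and 105 FPKM for rpa3 (-0.13) and 15.0 and 29.04 FPKM for rpa1 (0.91), which was higher in MZoep in 4 of 4 batches. The clamp loader subunit gene rfc5 had the lowest ratio (-0.14). In nucleotide supply, 3 of 6 genes were higher, with a median of 0.07 (-0.22, 0.72, 0.31 and -0.58). The dUTPase gene dut was lower in MZoep in 4 of 4 batches (110 and 93.8 FPKM, -0.23), whereas the thymidylate kinase gene dtymk was higher in 4 of 4 (5.06 and 9.94 FPKM, 0.85).

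Chromatin genes acting behind the fork had a median of 0.27, with 7 of 7 higher (-0.07, 0.40, 0.25 and 0.24 within the batches). The histone mRNA binding protein gene slbp had 94.9 and 121 FPKM (0.35), and the chromatin assembly gene chaf1a the lowest ratio (0.15). The paralog slbp2, which was also in the maternal list above, was at least 2-fold higher in MZoep (2.92 and 13.8 FPKM, 1.91), with 0.50, 3.24, 3.04 and -0.29 within the batches. Regulators of the G1/S step had a median of 0.24, with 10 of 13 higher (0.10, 0.58, 0.49 and -0.06). The cyclin gene ccna2 was the most abundant (302 FPKM in each genotype, 0.00), e2f5 had the lowest ratio (-0.38), and tfdp1a, an E2F partner, was at least 2-fold higher in MZoep (12.5 and 27.6 FPKM, 1.08, with 1.37, 1.42, 1.21 and 0.22 within the batches).

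**Figure D3:**
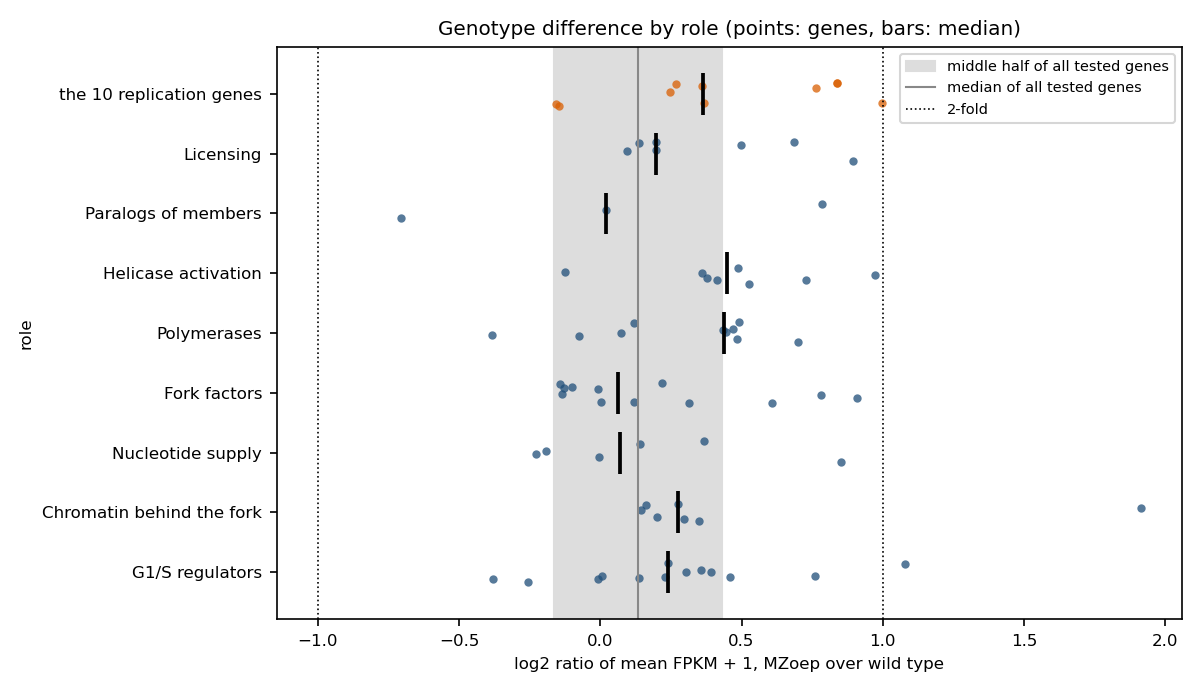
Log2 ratio of mean FPKM + 1, MZoep over wild type, on the horizontal axis for each gene tested, by role on the vertical axis; orange points are the 10 replication genes, blue points the other replication genes, black bars medians, and dotted lines a 2-fold difference. Only 2 genes, slbp2 (1.91) and tfdp1a (1.08), lie past a dotted line.

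The 5-prime cells, prepared by another library method, gave the same first 4 genes. Per cell, rrm2 had 41, 80 and 120 UMIs in the lowest, median and highest cell, pcna 8, 30.5 and 66, and cdc6 10, 30 and 58. The MCM subunits followed with medians of 19.5 UMIs for mcm7 (0 to 39), 14 for mcm3 (3 to 42), 11 for mcm4 (1 to 28), 9 for mcm6 (0 to 29), 8 for mcm2 (0 to 27) and 7 for mcm5 (0 to 22), and rrm1 had 9 (0 to 25). The 10 genes summed to 4767 UMIs per 1000000 (exact 95% Poisson interval 4701 to 4835, for counting error only). All 6 MCM subunits had a UMI in 73 of 86 cells (84.9%, 75.5% to 91.7%).

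**Figure D4:**
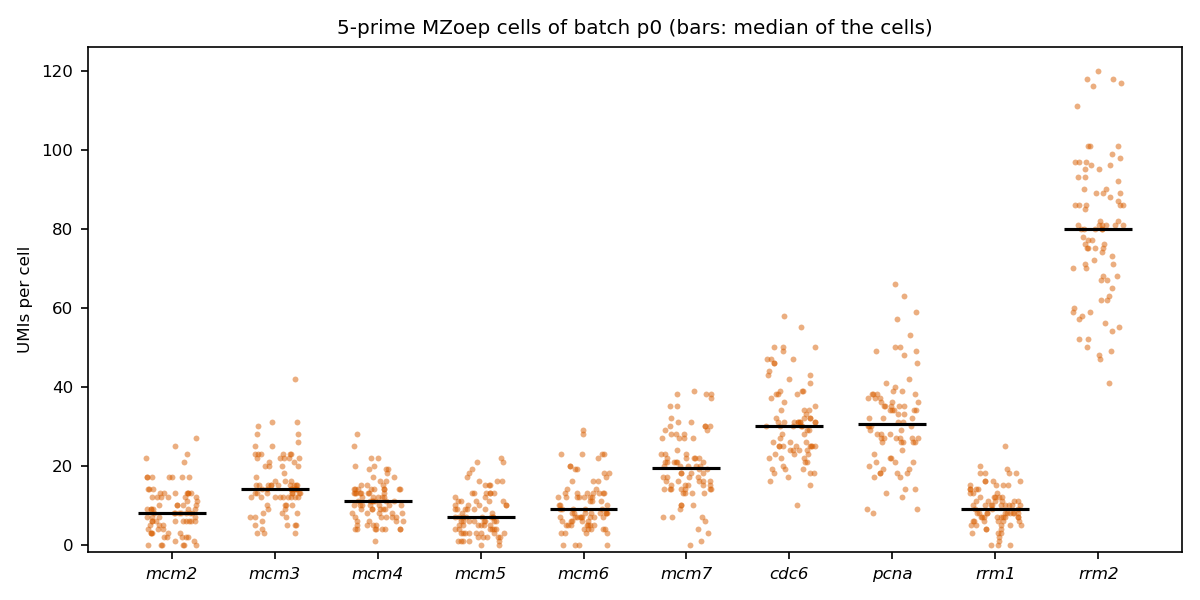
UMIs per 5-prime MZoep cell of batch p0 on the vertical axis for each gene on the horizontal axis; each point is 1 of 86 cells and bars mark the median. The lowest cell of rrm2 (41 UMIs) lies above the median of every other gene.

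Spread over the 5-prime cells differed between the genes. The coefficient of variation of CPM (UMIs of a gene per 1000000 in the cell) was lowest for rrm2, at 0.19, and highest for mcm6, at 0.68. Relative to Poisson counting given each cell's total, the variance was 4.31 times for mcm6, 4.14 times for pcna and 3.83 times for mcm2, where genes of similar UMI sums had medians of 2.94, 3.24 and 2.92. For rrm2 it was 2.95 times, against a median of 4.47 for genes of its size, and for rrm1 2.22 times against 2.93. Thus the abundant pcna and the less abundant mcm6 and mcm2 had the highest values relative to Poisson counting.

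Across full-length MZoep cells the 10 genes moved together to a moderate degree. Over 245 cells, with batch means subtracted, Pearson's r was above 0 for all 45 pairs, with a median of 0.30 (0.05 to 0.56); the median between one of the 10 and any other gene detected in at least 50% of cells was 0.12. The highest values were between rrm2 and cdc6 (0.56), mcm3 and mcm4 (0.50) and rrm1 and cdc6 (0.50), and the lowest between mcm7 and rrm2 (0.05). In the 47 wild-type cells the median was 0.27, with 38 of 45 pairs above 0, against a median of 0.11 with other genes, of which 80.9% of values lay below 0.27. The share of values with other genes that lay above 0 was not computed in either genotype, so the counts of pairs above 0 have no exact background. These correlations describe cells that share a library scale, and are given without a p.

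Depth and the number of genes detected moved with them. The mean of the 10 genes had an r of 0.49 with the log2 relative depth in MZoep cells and 0.39 in wild-type cells. It had an r of 0.63 with the number of genes detected in MZoep cells and 0.55 in wild-type cells. With that number regressed out the median over pairs was 0.18, and with cells rescaled by their median ratio it was 0.10. The median with other genes was not computed under either setting, so neither value has a background beside it. The pair rrm2 and cdc6 kept 0.46 after regression, mcm4 and mcm7 0.40, and mcm3 and mcm4 0.38. Within p1 to p4 the median over pairs was 0.36, 0.29, 0.23 and 0.11.

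In the 86 5-prime cells, where the mean of the 10 genes had an r of -0.02 with genes detected, the median over pairs was 0.09 (-0.25 to 0.31), with 32 of 45 above 0. With other genes the median was 0.0014, and 75.8% of those values lay below 0.09. Their share above 0 was not computed. The highest was between mcm3 and mcm5 (0.31) and the lowest between rrm1 and cdc6 (-0.25), a pair at 0.50 in the full-length cells. The order of the pairs thus differed between full-length and 5-prime cells, for which library method and batch cannot be told apart. No interval was made for these r values, so how much of the order is sampling error over 86 cells was not tested.

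**Figure D5:**
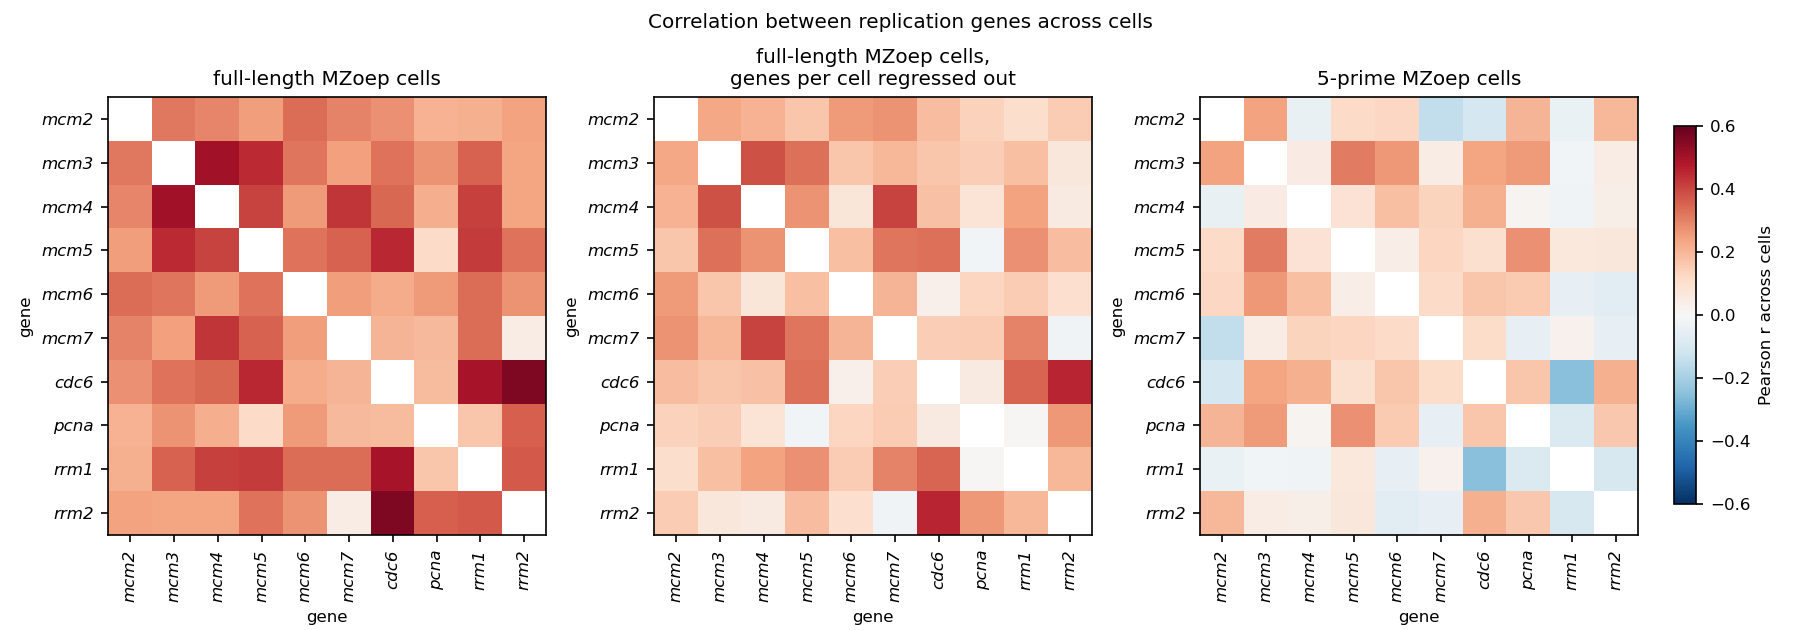
Pearson's r across cells for each pair of genes, as a color from blue (negative) to red (positive), in 245 full-length MZoep cells, in the same cells with the number of genes detected regressed out, and in 86 5-prime MZoep cells. The median over pairs is 0.30, 0.18 and 0.09 from left to right.

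Other gene lists were compared as well. The mean of the 10 genes had an r of 0.67 with the mean of 19 G2 and M genes, such as ccnb1 and cdk1, over full-length MZoep cells, and of 0.40 with genes detected regressed out. In the 5-prime cells the same r was -0.35. There the single genes of that list ran from -0.34 (birc5b) to 0.21 (cdc20). The sign for the list mean therefore differed between full-length and 5-prime cells, for which library method and batch cannot be told apart. For the mean of the other replication genes the values were 0.68, 0.38 and 0.02. A list of 5 ubiquitous genes, such as actb1 and eef1a1l1, gave 0.52, 0.51 and 0.44, so that after regression and in the 5-prime cells its r was above those of the G2 and M genes and of the other replication genes.

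The genes most like the mean of the 10 over full-length MZoep cells were ewsr1b (r 0.69), ccnd1 (0.68), si:ch211-195b11.4 (0.65), pou5f3 (0.64), ddx5 (0.64), setb (0.64), cdt1 (0.64), hspa8 (0.62), anp32e (0.62) and mex3b (0.62). Of these ccnd1 encodes cyclin D1, cdt1 is the partner of Cdc6 in loading the helicase, and pou5f3 is a maternal and early zygotic activator. The r values are the highest among 6362 genes and were not adjusted for the number of genes detected. In the 5-prime cells the r of the genes listed ran from 0.10 (ddx5) to 0.47 (hspa8). Over the 5-prime cells the first 10 were cirbpb (0.55), tuba8l4 (0.51), si:dkey-206l1.2 (0.48), hspa8 (0.47), pou5f3 (0.47), si:dkeyp-86f7.3 (0.46), hmga1a (0.46), rps9 (0.45), sp5l (0.45) and tmem107 (0.44). The heat shock cognate gene hspa8 and pou5f3 stood in both lists.

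Single genes had different closest partners over full-length MZoep cells. For rrm2 they were ccnd1 (0.70), setb (0.70) and g3bp1 (0.66), for cdc6 ivns1abpb (0.67), ccna2 (0.66) and mych (0.66), and for pcna ptmab (0.66), srsf1a (0.60) and cdc25b (0.54). For rrm1 they were rcc1 (0.59), si:ch211-198a12.6 (0.55) and ivns1abpb (0.55). Among the subunits, mcm3 and mcm4 were each in the other's first 3 (0.50), beside plrg1 (0.50) and ewsr1b (0.47) for mcm3 and srsf11 (0.50) and prp19 (0.49) for mcm4.

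The remaining subunits had no other MCM gene among their first 3. For mcm5 these were cbsb (0.56), ewsr1b (0.52) and hmga1a (0.52), for mcm6 pfkfb4b (0.50), u2af2a (0.46) and zic2b (0.45), for mcm7 ewsr1b (0.54), pou5f3 (0.51) and pabpc1a (0.51), and for mcm2 ctnna1 (0.40), cdc25b (0.39) and setb (0.37). In the 5-prime cells none of these partners stayed among the first 3 of its gene, where for example mcm7 was closest to top1mt (0.58), mcm6 to rps28 (0.51) and mcm3 to rpl35 (0.48).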

How the data were processed

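The authors deposited full-length libraries as FPKM for every gene in every cell, and 5-prime libraries as UMI counts. Bowtie2, RSEM and build GRCz10 are named per the submitters' processing notes; versions, annotation, use of strand and UMI collapsing are not stated in those sources. Columns of the 328 full-length cells in the count table were not used.

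Kept cells had 1500 or more genes at 1 FPKM, or 500 or more genes with a UMI in 5-prime libraries; 5 wild-type, 31 full-length MZoep and 2 5-prime cells were left out. No kept columns were identical, and no doublet caller or clustering was run. Summed FPKM per kept cell was 546642 to 646223.

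A gene was tested when, in 1 genotype or both, 20% of cells or more reached 1 FPKM and the mean reached 5 FPKM. A batch's weight was the product of its wild-type and MZoep cell numbers divided by their total. Correlations used log2(FPKM + 1) centred by batch, or log2(CPM + 10). Calculations used Python 3.11.15, numpy 2.4.6, pandas 2.3.3 and scipy 1.17.1, and were tested on simulated data. The alternatives tried were other pseudocounts, cell and gene filters, weights, scalings and leaving out batches.

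The 10 genes, the gene lists and the comparisons were chosen with earlier results of these data known. Named were all 10 genes, other replication genes at least 2-fold apart, the most abundant gene and the lowest and highest ratio of each role, and the most alike genes (10 for the mean, 3 for each gene). RefSeq annotation of GRCz12tu was used only for names and neighbours: in it mcm2, mcm3, mcm6, mcm7 and pcna overlap other genes, whose reads were not separated here. Sequences of the genes were not used here.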

Additional observations from a re-analysis of the deposited data

How the results depend on the processing

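Of 150 ratios of single genes under 15 alternatives, 145 moved by less than the SD over batches p2 to p4. Among the 15, leaving out the filter on low genes cannot change the ratio of a single gene, so its outcome was fixed in advance. The SD was wide for some genes: for mcm2 it was 0.69, so that a move from 0.27 to -0.20 counted as less. The log2 ratio stayed above 0 in all 15 for mcm3, mcm5, mcm6, mcm7, rrm1 and cdc6, stayed below 0 in all 15 for mcm4 and rrm2, and changed sign in 1 of 15 each for mcm2 (without p3) and pcna (median-ratio scaling, -0.20). The number of the 10 genes at least 2-fold apart became 1 with a pseudocount of 0.1 FPKM, with no cell filter, without batch p1, without p2 and without the highest cell of each gene, and 2 with means of log2 values and without p4; mcm6 was among them each time, joined by rrm1 (1.01) and mcm3 (1.004) respectively. Of all genes tested, 10.7%, 8.94%, 9.09%, 9.57%, 10.03%, 7.84% and 11.8% were 2-fold apart under these settings in turn, so that 1 of 10 is near the general share. For the other replication genes it was 0 with a pseudocount of 10 FPKM (1.20% of all genes tested were then 2-fold apart), 7 with means of log2 values (10.6% of these genes against 7.84% of all, given in this order below), 5 without p1 (7.58% against 9.09%) and without the highest cell (7.81% against 10.03%), and 6 without p3 (9.23% against 10.9%) and without p4 (9.23% against 11.8%). Of the 6 without p3, 1 was lower in MZoep, and so was 1 of 2 under the median-ratio scaling; otherwise those counted were higher. The median correlation was 0.18 with genes per cell regressed out and 0.10 with median-ratio scaling, for which 5 cells could not be scaled. It was 0.27 in cells with at least 5000 genes; this setting and the rescaled and within-cell ratios of gene pairs were chosen after seeing the data. With detection at 5 FPKM all 6 MCM subunits were found in 61.7% of wild-type and 72.2% of MZoep cells. These shares pool the batches, and values within batches were not computed at this limit. The cause was not tested in these cases. Ratios within batches, which pair the genotypes by library preparation, are given beside those of the 10 genes. Depth per cell is known only in relative terms, and p1 holds 3 wild-type cells.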

Other observations

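Cells rich in germ cell transcripts, chosen for those transcripts (nanos3, ddx4, dnd1, ca15b and dazl) and not for replication genes, had low values of the 10 genes in some cases. In the 5-prime set, the cell with the most germ cell UMIs, 1648 of them, had 3071 CPM over the 10 genes, which was the lowest of 86 cells (median 4766, highest 6657). In the full-length set a pair of MZoep cells of batch p2 stood apart, with 5544 and 5219 FPKM over the germ cell genes. The 10 genes summed to 1283 FPKM in the first, where 16 of 80 cells of that batch were lower, and to 797 FPKM in the second, where 0 of 80 were lower (median 1507). In the second cell mcm2 was at 0 and mcm7 at 19.2 FPKM, while rrm2 was at 410 FPKM. In the first cell mcm2 was at 70.2, mcm7 at 103.5 and rrm2 at 432 FPKM. The medians of MZoep cells of p2 were 27.1, 128 and 472 FPKM. The first cell was thus above the median for mcm2, where the second was below it. It was also above the median for mcm3, mcm5 and rrm1, and below it for mcm4, mcm6, cdc6 and pcna. Only 3 cells rich in germ cell transcripts are described here, and no test was made.

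Over the 5-prime cells the mean of the 10 genes had an r of -0.44 with the mean of the 5 maternal transcripts, and of -0.41 without the cell with the most germ cell UMIs. Single maternal transcripts ran there from -0.48 (btg4) to 0.16 (zp3b). Over full-length MZoep cells the r with the list mean was 0.20, and -0.01 with genes detected regressed out. Over wild-type cells it was 0.36. With the 20 G2 and M genes listed, of which 19 could be used, the 5-prime value without that cell was -0.32.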
